A study of Homo sapiens with 10 samples.

Results

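ZMYND8 peaks narrower than 1000 bp that were shared with the FLAG-ZMYND8 list and lay at gene starts made up 3618 of the 15085 ZMYND8 peaks on chromosomes 1 to 22 and X, or 24.0%. A ZMYND8 peak was taken when it was under 1000 bp wide, overlapped a FLAG-ZMYND8 peak by at least 1 bp and had its midpoint within 3 kb of the 5′ end of a gene on hg19. These peaks, called narrow shared peaks here, were thus selected on measured values, and their width, their overlap and the limit on distance are given as descriptions only. ChIP-seq, which sequences the DNA recovered with an antibody from crosslinked chromatin, was done in HEK293 cells, an established human embryonic kidney line, after digestion of the chromatin with micrococcal nuclease. The ZMYND8 list came from 2 samples precipitated with an antibody to ZMYND8 itself. Per the labels, the Flp-In T-REx HEK293 cells of those samples stably expressed full-length 3xFLAG-ZMYND8 or its N228F mutant, without saying which, and no induction is named for them. The FLAG-ZMYND8 list came from 2 samples precipitated with an anti-FLAG antibody from Flp-In T-REx cells in which 10 nM doxycycline induced overexpression of 3xFLAG-ZMYND8. Each target has 1 list that names no replicates, carries a score of 1 in every row and holds no counts. Depth is therefore unknown, and there is no replicate spread to set beside any value. The samples for H3K14ac, H3K27ac and input were not used here.

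ZMYND8 reads chromatin through a PHD finger, a bromodomain and a PWWP domain that sit side by side, bind modified histone tails and DNA, and act beside the nucleosome remodelling and deacetylase complex NuRD. Gene starts of widely expressed genes usually lie in CpG islands, stretches of GC-rich DNA in which the CpG dinucleotide has not been depleted, and the nucleosomes just downstream of such starts often carry acetylated histones. Micrococcal nuclease cuts the linker DNA between nucleosomes, so that the fragments it leaves are close to the length of nucleosomal DNA.

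The reference sequences of 6 narrow shared peaks show how widely their CpG content ranged. Each is printed 5′ to 3′ on the strand of the named gene, on hg19, with CpG dinucleotides in capitals. The first 4 peaks, near genes for translation, ribosomes and respiration, held 8 to 14 CpG sites in 151 bp. They lie at chrX:24072737-24072887 (plus strand, 251 bp upstream of the start of EIF2S3, outside genes), chr11:73499070-73499220 (plus strand, 228 bp downstream of MRPL48, intron), chr3:120315256-120315406 (plus strand, 156 bp downstream of NDUFB4, coding sequence) and chr13:27825509-27825659 (plus strand, 85 bp downstream of RPL21, exon of a non-coding transcript). The others are CpG-poor, at chr12:6723245-6723520 (minus strand, 308 bp downstream of the start of CHD4, the remodelling ATPase of NuRD, intron) with 8 CpG sites in 276 bp and at chr1:203275591-203275805 (plus strand, 1079 bp downstream of BTG2, an antiproliferative immediate early gene, intron) with 2 CpG sites in 215 bp. BTG2 had a further narrow shared peak, not printed, 281 bp upstream of its start with 26 CpG sites in 292 bp.
EIF2S3: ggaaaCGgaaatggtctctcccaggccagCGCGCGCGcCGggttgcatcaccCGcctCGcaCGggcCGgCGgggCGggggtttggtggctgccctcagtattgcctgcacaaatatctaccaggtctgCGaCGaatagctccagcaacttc
MRPL48: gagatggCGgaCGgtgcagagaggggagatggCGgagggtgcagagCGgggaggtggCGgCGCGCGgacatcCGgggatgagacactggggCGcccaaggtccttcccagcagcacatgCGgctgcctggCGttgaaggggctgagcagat
NDUFB4: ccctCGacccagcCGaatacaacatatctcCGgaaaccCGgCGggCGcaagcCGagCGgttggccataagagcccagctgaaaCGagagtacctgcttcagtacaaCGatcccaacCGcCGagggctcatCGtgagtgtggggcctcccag
RPL21: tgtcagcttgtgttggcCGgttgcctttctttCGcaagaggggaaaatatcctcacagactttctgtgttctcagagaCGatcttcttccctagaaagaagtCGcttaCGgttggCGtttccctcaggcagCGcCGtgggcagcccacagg
CHD4: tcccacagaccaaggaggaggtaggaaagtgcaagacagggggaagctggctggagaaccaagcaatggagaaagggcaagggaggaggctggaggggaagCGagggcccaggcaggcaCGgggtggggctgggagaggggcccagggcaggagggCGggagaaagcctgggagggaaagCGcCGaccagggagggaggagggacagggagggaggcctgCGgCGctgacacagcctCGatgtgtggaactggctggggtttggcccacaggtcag
BTG2: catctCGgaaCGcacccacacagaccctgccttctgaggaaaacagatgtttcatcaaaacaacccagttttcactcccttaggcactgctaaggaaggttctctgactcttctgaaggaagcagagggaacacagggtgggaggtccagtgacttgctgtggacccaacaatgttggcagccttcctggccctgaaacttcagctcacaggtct

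A pair of peaks that fell outside the selection is shown for comparison, chosen after the values had been seen. An antibody-only narrow peak, which overlapped no FLAG-ZMYND8 peak, lies at chr20:52225194-52225344 (plus strand), 376 bp downstream of the start of a long non-coding RNA gene, in an intron, with 10 CpG sites in 151 bp. A shared narrow peak that was far from gene starts lies at chr6:4647783-4648008 (plus strand), 3899 bp downstream of a small nucleolar RNA gene and outside genes, with 8 CpG sites in 226 bp.
Antibody-only peak: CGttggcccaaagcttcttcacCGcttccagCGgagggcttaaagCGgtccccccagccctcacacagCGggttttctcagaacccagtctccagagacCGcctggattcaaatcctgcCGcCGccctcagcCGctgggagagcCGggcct
Distal shared peak: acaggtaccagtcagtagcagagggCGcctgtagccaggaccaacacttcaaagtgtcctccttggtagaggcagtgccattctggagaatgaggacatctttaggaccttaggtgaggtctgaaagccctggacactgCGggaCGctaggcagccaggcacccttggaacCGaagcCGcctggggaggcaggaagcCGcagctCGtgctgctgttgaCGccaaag

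Within the limit of 3 kb, the narrow shared peaks gathered close to the gene start and on its downstream side. The median distance between midpoint and start was 311 bp, 2416 peaks (66.8%) lay within 500 bp, and 1043 (28.8%) covered the start itself. Within 1 kb there were 2126 on the downstream and 927 on the upstream side, a downstream share of 69.6% (95% Wilson interval 68.0 to 71.2%, two-sided exact binomial test against 50%, adjusted p = 1.71e-106 over 7 tests). The fullest 50 bp bin, 100 to 150 bp downstream of the start, held 239 of them. Peaks on both sides were of like width and distance, with medians of 270.5 bp and 259 bp downstream against 282 bp and 231 bp upstream. Starts were the 5′ ends of gene records, so a peak at a transcript start inside the gene could count as downstream. With transcript starts the downstream share was 63.0%. Neighbouring peaks and peaks at the same gene are not independent, and p-values here compare peaks and not replicates.

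The closest comparison was with the 3722 antibody-only narrow peaks at gene starts, which met the same limits of width and distance but overlapped no FLAG-ZMYND8 peak. Fewer of these lay near the start, 1916 or 51.5% within 500 bp, a difference of 15.3 percentage points that is given as a description, since the limit of 3 kb enters it, and that was 4.19 points with a limit of 1 kb. Their median distance was 482 bp, and 535 (14.4%) covered the start. Among peaks wider than the minimum of their list the difference was 7.65 percentage points, and 14.9 among those at the minimum. The downstream share of the antibody-only peaks within 1 kb was 66.2%, which is 3.48 percentage points lower than that of the narrow shared peaks (95% Newcombe interval 1.03 to 5.93, two-sided Fisher's exact test, adjusted p = 0.00579). That small difference was 1.35 points and did not pass the threshold when peaks of the minimum width were left out (unadjusted p = 0.399), nor when only the starts of protein-coding genes were used (2.24 points, p = 0.105 in the same exact test).

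**Figure D1:**
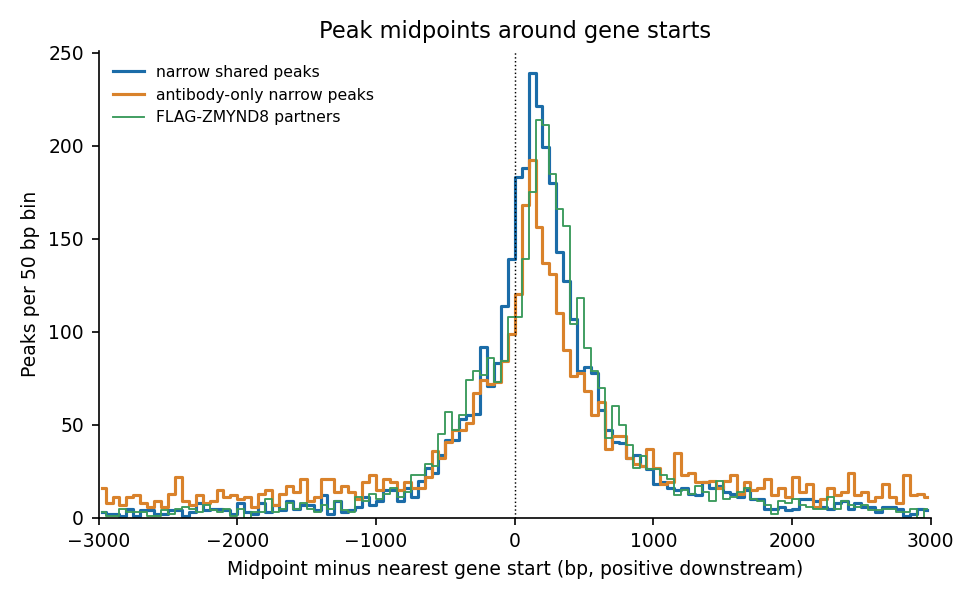
Midpoints of narrow shared peaks (blue), antibody-only narrow peaks (orange) and the FLAG-ZMYND8 partners of the shared peaks (green) by distance from the nearest gene start, in peaks per 50 bp bin, with positive distances downstream. All 3 profiles are highest just downstream of the start, with 239 and 192 peaks in the bin from 100 to 150 bp for the first and second groups and 214 partners in the bin from 150 to 200 bp.

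Annotation of the midpoints placed most narrow shared peaks in transcribed sequence. Introns held 1258 (34.8%), untranslated parts of exons 859 (23.7%), exons of non-coding transcripts 494 (13.7%) and coding sequence 449 (12.4%), and 558 (15.4%) lay outside genes. The nearest gene was protein-coding for 2666 (73.7%), a long non-coding RNA (lncRNA) gene for 777 (21.5%) and of another kind for 175. Of the antibody-only peaks, 2403 (64.6%) had a protein-coding gene nearest, 9.13 percentage points fewer (95% interval 7.02 to 11.2, Fisher's exact test, adjusted p = 4.22e-17). That difference was 3.97 points among peaks wider than the minimum of their list and 12.4 points among those at the minimum. It was 4.955 points with a distance limit of 1 kb. Outside genes lay 787 (21.1%) of the antibody-only peaks.

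The FLAG-ZMYND8 peak that a narrow shared peak overlapped, called its partner, often differed from it in width and was only partly aligned with it. A single partner was found for 3410 peaks and 2 partners for 208, in which case the one with the larger overlap was used. Members of the narrow set were 151 to 998 bp wide with a median of 262 bp, and 1005 (27.8%) had the minimum width of 151 bp. The partners had a median width of 352.5 bp and reached 2636 bp, and 2350 of them (65.0%) were wider than the ZMYND8 peak. The minimum width of the FLAG-ZMYND8 list was 167 bp, so each of the 1005 peaks of 151 bp had a wider partner by construction. The selection also limited the width of the ZMYND8 peak and not that of the partner. The overlap had a median of 170 bp, or 75.4% of the ZMYND8 peak, and ranged down to 1 bp, with 265 overlaps (7.32%) under 50 bp. In 1107 cases (30.6%) the ZMYND8 peak lay wholly within its partner, and in 436 (12.1%) the partner lay within the ZMYND8 peak. Widths in the lists went together only weakly (Spearman's rho 0.18 across 3618 pairs of overlapping peaks, and 0.17 across the 2255 pairs in which both were wider than the minimum, as a description).

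**Figure D2:**
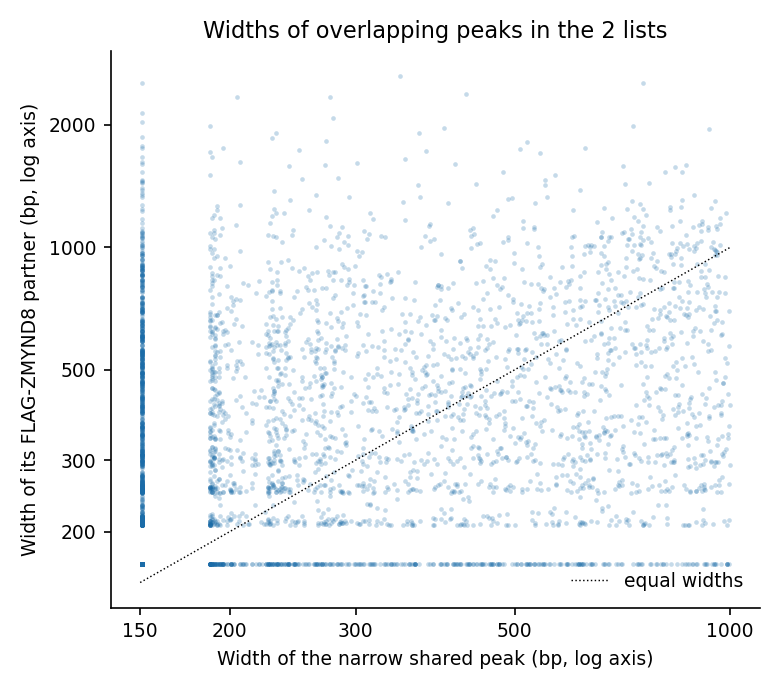
Width of each narrow shared peak (horizontal, log axis) against the width of the FLAG-ZMYND8 peak it overlaps (vertical, log axis), 1 point per pair, with a dotted line at equal widths. The points at the left edge are the 1005 peaks of 151 bp, and the lowest row is the 568 partners of the minimum of 167 bp. Above the line lie 65.0% of the points, including all those at the left edge, where the partner is wider by construction.

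Partners lay slightly more often downstream than upstream of the ZMYND8 peaks. Midpoints of the partner and the narrow shared peak were a median of 114 bp apart, and 1645 pairs (45.5%) were within 100 bp. The partner midpoint was downstream in 1906 pairs, upstream in 1702 and equal in 10, a downstream share of 52.8% (95% Wilson interval 51.2 to 54.5%, two-sided exact binomial test, adjusted p = 0.000844). The median shift was 10 bp. Among peaks of the minimum width the share was 52.1% and did not pass the threshold (exact binomial test, p = 0.185). The partner midpoint was farther downstream for 54.0% of the peaks downstream of the start within 1 kb and for 51.1% of those upstream. For the latter, a downstream shift points toward the start. The partner was on the same side of the start for 90.6% of the peaks downstream within 1 kb and for 81.2% of those upstream.

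Members just inside and outside the limits were close to each other in value. The widest narrow shared peak was 998 bp and the narrowest shared peak at a gene start that was left out was 1000 bp. The farthest midpoint was 2998 bp from a start, and the nearest one beyond the limit was at 3001 bp. Of the antibody-only peaks at gene starts, 386 (10.4%) ended within 100 bp of a FLAG-ZMYND8 peak, the nearest of them directly beside it.

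The narrow shared peaks lay in CpG-rich DNA. Base composition was taken in 200 bp around each midpoint, and a window was called CpG-rich when its GC content was over 50% and its CpG observed/expected ratio, the number of CpG sites relative to that set by its C and G content, was over 0.6. Their median GC content was 66.5% (lowest 32.5%, highest 87.0%) and their median CpG ratio 0.783, and 2731 (75.5%) were CpG-rich. The antibody-only peaks at gene starts had medians of 64.0% and 0.673, and 2106 (56.6%) were CpG-rich, 18.9 percentage points fewer (95% interval 16.8 to 21.0, Fisher's exact test, adjusted p = 1.5e-65). The 1650 narrow shared peaks far from gene starts had medians of 60.0% and 0.425. Of these, 570 (34.5%) were CpG-rich, 40.9 points fewer than of those at gene starts (95% interval 38.2 to 43.6). The limit of 3 kb sets these groups apart, and CpG content went with distance from the start. This difference is therefore given as a description. Width went with both comparisons, since 57.4% of the antibody-only and 42.4% of the distal shared peaks had the minimum width. The difference from the antibody-only peaks was 8.75 points among peaks wider than the minimum and 16.7 points among peaks of the minimum width.

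**Figure D3:**
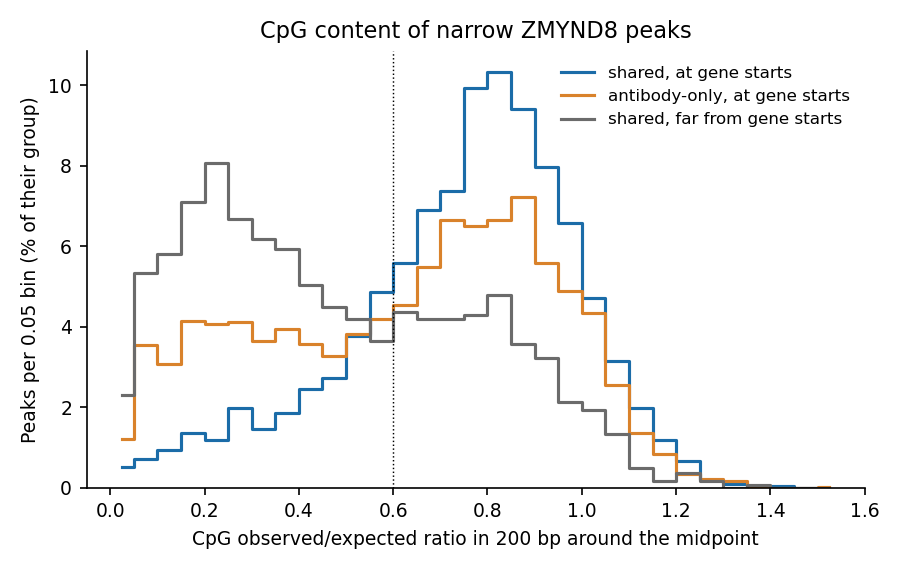
CpG observed/expected ratio in 200 bp around the midpoint (horizontal) for narrow shared peaks at gene starts, antibody-only narrow peaks at gene starts and narrow shared peaks far from gene starts, as a percentage of each group per 0.05 bin. The dotted line marks 0.6, and the medians of the groups are 0.783, 0.673 and 0.425.

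Distance from the start also went with CpG content, and the difference between the groups was found at each distance. Within 200 bp of the start, 87.1% of 1235 narrow shared and 82.6% of 964 antibody-only peaks were CpG-rich, a difference of 4.55 percentage points (Fisher's exact test, unadjusted p = 0.00308). From 200 to 500 bp the shares were 80.0% and 71.1%, and from 500 bp to 1 kb they were 69.8% and 54.3%. From 1 to 3 kb, 46.9% of 561 and 24.4% of 1162 peaks were CpG-rich, a difference of 22.4 points (p = 2.39e-20 in the same exact test). The share of peaks of the minimum width went the other way, from 22.4% to 39.0% across these distances in the narrow shared and from 48.0% to 71.9% in the antibody-only peaks.

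**Figure D4:**
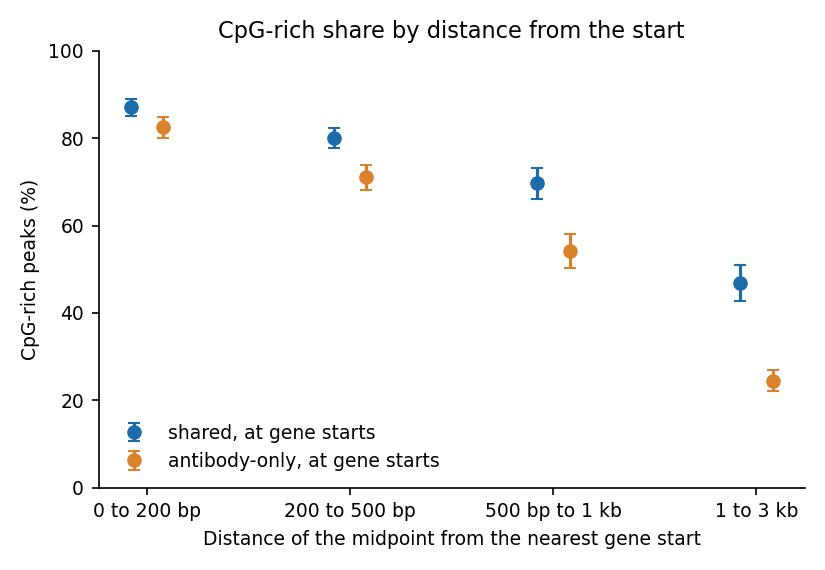
CpG-rich share of narrow shared (blue) and antibody-only (orange) peaks at gene starts, in percent, by distance of the midpoint from the start, with 95% Wilson intervals that cover counting error only. The shares fall from 87.1% and 82.6% within 200 bp to 46.9% and 24.4% at 1 to 3 kb, and the intervals of the groups do not overlap at any of the 4 distances.

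Wider peaks of the narrow set were also closer to the start and richer in CpG. Of the 1005 peaks of 151 bp, 61.6% were CpG-rich and 57.2% lay within 500 bp. Both shares were higher in each wider class, and reached 84.6% and 75.1% among the 921 peaks wider than 500 bp. The median width of their partners was 303 bp in the former class and 433 bp in the latter.

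Short motifs were counted on both strands of the 200 bp windows, and in the first 200 bp of all 20098 protein-coding genes for comparison, as a description of letters and not of binding. The GC box GGGCGG, the core of Sp1-type sites, was in 47.7% of the narrow shared peaks, 39.4% of the antibody-only peaks, 25.7% of the distal shared peaks and 37.2% of the gene windows. The ETS motif CCGGAAG was in 7.19%, 5.43%, 2.48% and 6.07%, and the NRF1 motif GCGCANGCG in 4.28%, 3.06%, 2.06% and 3.35%. The AP-1 motif TGANTCA had the opposite order, with 2.57% of the narrow shared, 3.20% of the antibody-only and 5.94% of the distal shared peaks against 3.17% of the gene windows. TATAAA, the core of the TATA box, was in 1.41%, 1.64% and 2.18% of these groups of peaks and in 3.76% of the gene windows. The E-box CACGTG was in 6.69%, 5.86% and 6.61% of the peaks against 3.45% of the gene windows, and CCAAT in 12.3% of the narrow shared peaks, 520 of the 3722 antibody-only peaks and 14.2% of the distal shared peaks against 15.0%. The YY1 motif AAGATGGCG was in 0.940%, 0.591% and 0.424% of the peaks and in 2.03% of the gene windows, which all begin at the start. Motifs that contain CpG or are rich in C and G share letters with the measure of composition above.

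Of the 20098 protein-coding genes on these chromosomes, 3530 had a narrow shared peak within 3 kb of the start, a background of 17.6%, and of 18592 lncRNA genes 1361 did, or 7.32%. The FLAG-ZMYND8 list was the longer, with 63688 peaks on these chromosomes against 15085 in the ZMYND8 list, and counts of its peaks per start go with that. A FLAG-ZMYND8 peak lay within 3 kb of the start of 11670 protein-coding genes (58.1%), and an antibody-only narrow peak at 3033 (15.1%). A single narrow shared peak was found at 3353 genes, 2 at 176 genes and 3 at NAA38, an N-terminal acetyltransferase subunit gene. Midpoints in the ZMYND8 list were never closer than 1000 bp, whereas 10272 neighbouring midpoints in the FLAG-ZMYND8 list were, down to 332 bp. The start nearest to a narrow shared peak had 1 ZMYND8 peak within 3 kb in 2968 cases but 2 or more FLAG-ZMYND8 peaks in 2398 (66.3%), and up to 9. Genes with a CpG-rich start had a narrow shared peak in 2874 of 11812 cases (24.3%), and the other genes in 656 of 8286 (7.92%). Protein-coding genes with a divergent protein-coding start within 1 kb upstream had one in 487 of 1703 cases (28.6%), against 3043 of 18395 (16.5%) of the others, and such pairs can share 1 peak.

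Genes of the NuRD complex, which deacetylates and remodels nucleosomes, had narrow shared peaks at 7 of 14 starts, the highest share of the 23 gene groups examined and a small group, against 17.6% of all protein-coding genes. Of the 14 starts 85.7% were CpG-rich and 92.9% had a FLAG-ZMYND8 peak, against 58.8% and 58.1% of all protein-coding genes. The 7 were the remodellers CHD3 and CHD4, the deacetylase HDAC1, the histone-binding RBBP7, the scaffold MTA3, GATAD2A and the methyl-CpG reader MBD2. At CHD3 a peak of 188 bp (chr17:7788094-7788281) covered the start, with its midpoint 73 bp downstream in coding sequence, inside a FLAG-ZMYND8 peak of 318 bp. A further peak of 192 bp lay 1579 bp downstream of the same start. These are also counted for NAA38, whose start faces that of CHD3 on the other strand. At CHD4, peaks of 276 bp and 151 bp lay 308 bp and 1575 bp downstream, with CpG ratios of 0.318 and 0.107, and 7 FLAG-ZMYND8 peaks lay within 3 kb. The peaks nearest to the starts of HDAC1, RBBP7 and MBD2 lay 690, 695 and 777 bp downstream, and those of MTA3 and GATAD2A 569 and 584 bp upstream.

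**Figure D5:**
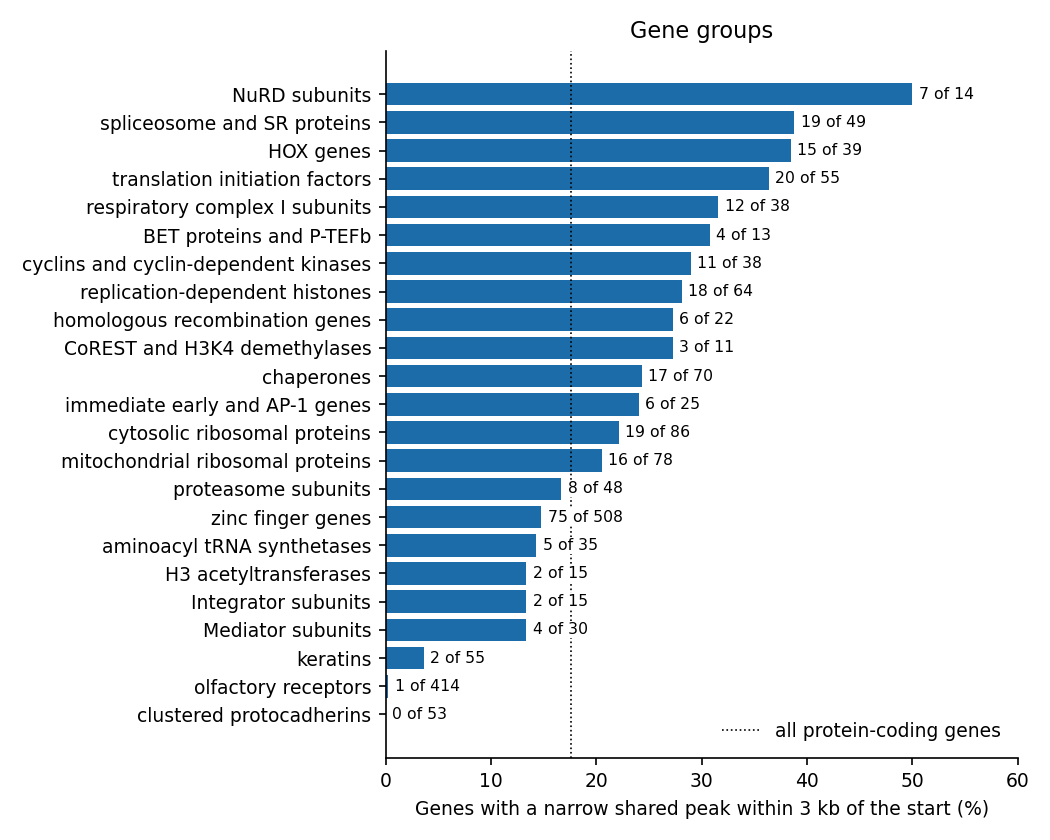
Share of protein-coding genes of each group with a narrow shared peak within 3 kb of the start (horizontal, percent), with the number of genes written beside each bar and a dotted line at the 17.6% of all protein-coding genes. NuRD genes stand highest at 7 of 14, and keratins, olfactory receptors and clustered protocadherins stand at 2 of 55, 1 of 414 and 0 of 53.

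The other groups of chromatin and transcription genes given here were small and lay below or above the background of 17.6%. Differences were not tested. Of the H3 acetyltransferase genes, 2 of 15 (13.3%) had a narrow shared peak, KAT6A and KAT6B. Of the BET and P-TEFb genes, which serve transcription elongation, 4 of 13 (30.8%) did, including the cyclin T genes CCNT1 and CCNT2. Mediator genes had 4 of 30 and Integrator genes 2 of 15, close to 17.6% for groups of this size.

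Genes for RNA processing and translation carried narrow shared peaks at shares from high to near the background of 17.6%, and differences between groups were not tested. Spliceosome and SR protein genes had narrow shared peaks at 19 of 49 starts (38.8%) and genes named as translation initiation factors or their regulators at 20 of 55 (36.4%), whereas cytosolic ribosomal protein genes had them at 19 of 86 (22.1%), mitochondrial ribosomal protein genes at 16 of 78 (20.5%) and aminoacyl tRNA synthetase genes at 5 of 35 (14.3%). A CpG-rich start was found for 87.8%, 89.1%, 88.4%, 88.5% and 80.0% of the genes of these groups, and a FLAG-ZMYND8 peak for 83.7%, 85.5%, 83.7%, 73.1% and 88.6%. The nearest such peak lay downstream of the start for 18 of the 19 cytosolic ribosomal protein genes, 12 of the 20 initiation factor genes and 14 of the 19 spliceosome and SR protein genes, beside 69.6% of all narrow shared peaks within 1 kb. The gene counts took peaks up to 3 kb from the gene's own start. The 69.6% took peaks within 1 kb of the nearest start of any gene. At SRSF1, a splicing factor gene, a peak of 555 bp (chr17:56084423-56084977) covered the start inside a partner of 1333 bp. At EIF4H a peak of 832 bp (chr7:73588166-73588997) covered the start with 104 CpG sites and a GC content of 74.3%, and at EIF5 one of 404 bp (chr14:103799715-103800118) lay inside a partner of 1285 bp. At RPS25 a peak of 225 bp (chr11:118889206-118889430) covered the start with its midpoint in an untranslated part of an exon. At MRPL27, whose protein belongs to the large mitochondrial ribosomal subunit, a peak of 151 bp (chr17:48450436-48450586) covered the start inside a partner of 588 bp.

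Genes of energy metabolism and protein turnover ranged from above to near the 17.6% of all protein-coding genes, and these differences were not tested. Respiratory complex I genes had narrow shared peaks at 12 of 38 starts (31.6%), among them NDUFC2, where a peak of 189 bp (chr11:77790782-77790970) covered the start inside a partner of 756 bp. Chaperone genes had 17 of 70 (24.3%), including HSPA8, HSP90AA1 and HSP90AB1, and proteasome genes 8 of 48 (16.7%), including PSMD14, where the midpoint of a 624 bp peak (chr2:162164625-162165248) fell on the start itself.

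Cell cycle and DNA repair genes formed small groups with shares somewhat above the 17.6% of all protein-coding genes, and these differences were not tested. A narrow shared peak was found at 24.3% of all protein-coding genes with a CpG-rich start and at 7.92% of the others. Cyclin and cyclin-dependent kinase genes had narrow shared peaks at 11 of 38 starts (28.9%), with CCNA2, CCNB1, CCNE2, CDK1 and CDK2 among them, and 84.2% of the starts of this group were CpG-rich. CCNT1 and CCNT2 are counted in this group as well as above. At CCNA2, which drives S phase and mitosis, a peak of 271 bp (chr4:122744778-122745048) covered the start inside a partner of 462 bp. Homologous recombination genes had 6 of 22 (27.3%), with CpG-rich starts in 63.6%, namely BARD1, MRE11, PALB2, RAD50, RAD51C and RAD51D. At RAD51C a peak of 756 bp (chr17:56769637-56770392) covered the start and overlapped a partner of 1042 bp by 684 bp.

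HOX genes, which pattern the body axis, had narrow shared peaks at 15 of 39 starts (38.5%), against 17.6% of all protein-coding genes. From the start of each of these genes to its nearest such peak the median distance was 1396 bp, and neighbouring HOX genes can count the same peak. Their starts were CpG-rich in 56.4% of cases and had a FLAG-ZMYND8 peak in 94.9%. At HOXD3 a peak of 462 bp (chr2:177001264-177001725) covered the start, and at HOXC10 both peaks, of 234 bp and 151 bp, lay over 1 kb upstream. Of the immediate early and AP-1 genes 6 of 25 had one (ATF3, BTG2, DUSP1, EGR2, EGR3 and JUNB), although 24 of the 25 had a FLAG-ZMYND8 peak. At EGR2 a peak of 989 bp (chr10:64577826-64578814) in coding sequence held 100 CpG sites and contained its partner of 208 bp.

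Clustered and repeated gene families ranged from high to almost none. Replication-dependent histone genes had narrow shared peaks at 18 of 64 starts (28.1%), against 17.6% of all protein-coding genes. The 18 starts had only 9 distinct peaks, since neighbouring histone genes lie close together. Histone genes are near-copies of one another, so reads in their coding sequence, as at the peak of 313 bp at H4C1 (chr6:26021849-26022161), are uncertain in their origin. Zinc finger genes had 75 of 508 (14.8%), below the background of 17.6%, with CpG-rich starts in 72.8% and a FLAG-ZMYND8 peak in 47.8%. Keratin genes had 2 of 55 (KRT13 and KRT19), olfactory receptor genes 1 of 414 (OR1F1) and clustered protocadherin genes 0 of 53. Few of these starts were CpG-rich, 3.64%, 1.21% and 17.0%, and FLAG-ZMYND8 peaks lay at 20.0%, 1.21% and 5.66% of them.

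Of the loci examined in the study, ETS2, a transcription factor gene, had a narrow shared peak. It was 225 bp wide (chr21:40177291-40177515) and its midpoint lay 296 bp downstream of the start, inside a partner of 570 bp. CLCN7, CREBBP, PPP4C, SLC7A5 and ZMYND8 itself had none, although each had 1 to 4 FLAG-ZMYND8 peaks within 3 kb of its start. CREBBP, SLC7A5 and ZMYND8 each had 1 ZMYND8 peak there that did not meet the selection.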

How the data were processed

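HEK293 cells were studied by ChIP-seq. According to the methods and the submitters' processing notes, BWA (version 0.7 for the ZMYND8 samples) and HOMER were used by the authors on hg19. The 2 lists that the authors deposited give peak positions on hg19 and a score of 1 in every row. Peak calling settings and the combination of replicates are not given in the sources used here. Peak midpoints were compared with gene starts of GENCODE release 44 mapped to GRCh37, the build of hg19, and sequences were read from that genome. Signed distances are positive downstream of the start. Shares were compared by two-sided exact binomial and Fisher's exact tests, with Benjamini-Hochberg adjustment over 7 tests, and 95% Wilson or Newcombe intervals cover counting error only. Placement and overlap functions were tested on simulated lists.

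The selection of peaks, the gene groups and the motifs were chosen with earlier results of these data known. Named genes were protein-coding: the 8 with the most narrow shared peaks at the start (ties by the number of FLAG-ZMYND8 peaks there, then by symbol), per group the 2 whose peak lay nearest to the start, and the loci of the study. Further genes are named only as members of a group. The named genes of 1 group are not reported here. Sequences were the nearest peak per group of 300 bp or less outside untranslated regions, of which the ones shown were picked after their values were seen. Alternatives are given in the closing section. Python 3.11.15, pandas 2.3.3, NumPy 2.4.6, SciPy 1.17.1, pysam 0.24.0, samtools 1.23.1 and matplotlib 3.10.9 were used.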

Additional observations from a re-analysis of the deposited data

How the results depend on the processing

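Of 72 values that tested results took under other settings, 69 kept their direction and side of the 0.05 threshold. Not all of these could change. The downstream share and its difference from the antibody-only peaks took only peaks within 1 kb, so windows of 1 kb and 5 kb left them the same by design. The 72 also include settings chosen after seeing the data and comparisons given above as descriptions. The downstream share of the narrow shared peaks ranged from 63.0% (transcript starts) to 71.3% (reciprocal overlap of 50%). The CpG-rich difference from the antibody-only peaks ranged from 8.75 (only peaks wider than the minimum) to 23.0 percentage points (transcript starts) under the planned settings, and that from distal shared peaks from 37.0 to 49.7 points. The difference within 500 bp ranged from 4.19 (window of 1 kb) to 20.2 points. The difference in protein-coding share ranged from 3.97 (only peaks wider than the minimum) to 10.3 points (window of 5 kb) under the planned settings. The difference in downstream share was 1.35 points with only peaks wider than the minimum and 2.24 with protein-coding starts only, and neither passed the threshold. The downstream share of the partners was 52.1% and did not pass among peaks of the minimum width. The cause was not tested. The number of narrow shared peaks fell from 3618 to 1477 with a reciprocal overlap of 50% and to 2271 with only peaks wider than the minimum, and the share of protein-coding genes with one to 7.49% and 11.4%. The settings restricted to peaks of the minimum width or to a range of distances were chosen after seeing the data.

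No paired analysis was possible because each target has 1 list that names no replicates. The lists give no counts or signal, so depth, peak strength and agreement between replicates could not be assessed, and whether an antibody-only peak had FLAG-ZMYND8 signal below the calling threshold is not known. Antibody, induction and sample set differ together between the lists and cannot be told apart.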

Other observations

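The chromosomes carried unequal parts of the groups. Chromosome X held 45 of the narrow shared peaks (1.24%) and 133 of the antibody-only peaks (3.57%), with 4.32% of the protein-coding genes. Chromosome 19 held 146 (4.04%) and 269 (7.23%), with 7.36% of the genes, and chromosome 2 held 304 (8.40%) and 222 (5.96%), with 6.24%. Of the narrow shared peaks far from gene starts, 1.58% lay on chromosome X, 4.06% on chromosome 19 and 6.12% on chromosome 2. The low shares on X and 19 were thus found in both groups of shared peaks. These shares were not tested.

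Narrow shared peaks also stood in pairs. Neighbouring midpoints were within 3 kb of each other in 172 cases, with a median spacing of 1539 bp and a smallest of 1003 bp. SALL1, a zinc finger transcription factor gene, had a peak of 498 bp that covered its start (chr16:51185988-51186485) and another of 245 bp 1646 bp downstream, with CpG ratios of 0.665 and 0.735. At SDE2 the peak 129 bp downstream of the start had a CpG ratio of 1.01, and the one 1391 bp downstream had 0.530. At CDK6 peaks of 602 bp and 880 bp lay 145 bp and 1735 bp downstream, with ratios of 0.729 and 0.672.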
